A study of Homo sapiens with 8 samples.

Results

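The amino acid response is the programme by which cells raise the supply of amino acids when these run short. Here it was described through 33 genes chosen by symbol: the transcription factor ATF4 and stress genes linked to it, the enzymes of serine, asparagine, glutamine, aspartate and proline synthesis, folate one-carbon enzymes, amino acid transporters and cytosolic aminoacyl-tRNA synthetases. The genes were measured on 8 Affymetrix arrays as every probe set whose single gene symbol is on the list. This found 61 of 54675 probe sets and 32 of the 33 genes. The expression of MARS1 was not analysed here. The stress genes CHAC1 and DDIT4 and several transporter genes responded to the inhibitor in the arrays labelled NALM-6, and most of the genes differed between the lines without it. By limma, 36.7% of the tested genes were called in that response, near the 39.3% of all genes. Between the lines 90% were called, beside 68.3% of all genes.

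As background, shortage of an amino acid or misfolded protein activates kinases that phosphorylate the initiation factor eIF2alpha. General translation then falls while the mRNA of ATF4 is translated more, so the ATF4 transcript is not the main point of control. ATF4 protein, with partners of the C/EBP family, binds elements in the promoters of ASNS, CHAC1, TRIB3 and other genes, which raise synthesis, uptake and charging of amino acids, while CHAC1 degrades glutathione and DDIT4 restrains mTORC1. Lymphoid leukaemia cells are known for a high need of asparagine and glutamine.

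Per the labels, the 2 lines are called SUP-B8 and NALM-6 and come from acute lymphoblastic leukaemia. Treatment lasted 72 hours and was either DMSO, the vehicle, or 0.5 uM GSK126, which inhibits EZH2, the methyltransferase of Polycomb repressive complex PRC2. Each of the 4 groups (SUP-B8 with DMSO, SUP-B8 with GSK126, NALM-6 with DMSO, NALM-6 with GSK126) had 2 arrays called biological replicates in the titles. Each label stands for 1 line, and no EZH2 genotype is given for either, although the series title names a substitution in EZH2 and H3K27 trimethylation. Nothing further says that replicates came from separate cultures, so p-values measure the spread between these arrays, which may be technical.

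The labels were checked against markers. All 6 measured B-cell markers lay above the array medians in every group, and 0 of 4 myeloid markers did. Of 4 T-cell markers 2 lay above, at group means of at most 8.27, as did 2 or 3 of 5 epithelial and stromal markers, with COL1A1 highest at 9.58, and 2 of 3 erythroid markers, with HBB highest, at group means of 7.73 to 8. Of these 16 other-lineage markers 7 were tested, and 0 of the 7 were called between treatments by limma. Among the B-cell markers the NALM-6-labelled response was called higher for CD79B (0.55), PAX5 (0.34) and BLNK (0.17) and lower for CD22 (-0.57) and EBF1 (-0.42), and 0 of 6 were called in the SUP-B8 label. Their part in the results that follow was not tested. DNTT, the terminal transferase of precursor lymphocytes, averaged 13.67 with DMSO and 13.54 with GSK126 under the SUP-B8 label, but 6.86 and 6.65, below the array medians, under the NALM-6 label. As background, NALM-6 is known as a precursor B-cell leukaemia line in which DNTT is present. The values, read from the brightest of the 3 DNTT probe sets alone, go against that. Arrays are therefore named by their label here, and every direction between lines rests on the labels. Array medians lay between 7.18 and 7.24, and replicate arrays correlated at 0.9977 to 0.9982 over all probe sets.

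Promoter sequences are shown because ATF4 is known to act through such elements. A search was made for the core of the C/EBP-ATF response element, TGATGNAA or its reverse complement TTNCATCA, on both strands, in RefSeq promoter windows of GRCh38.p14 that run from 250 bases before to 50 bases after each start. Of 28 listed genes with a window, 10 held a match in at least 1 window: AARS1, ASNS, ATF3, CHAC1, GARS1, GOT1, MARS1, SLC1A4, SLC1A5 and SLC3A2. That is 35.7%, where 4.46% of all 27305 genes with a window held one, and by window 22.7% of 44 against 3.62% of 35116. Listed genes were chosen in part for known links to ATF4, so a share above that of all genes is not an independent result. No other motif was searched, and a match is a run of letters, not a measured binding site. A pair of genes that rose with GSK126 in the arrays labelled NALM-6 (CHAC1 and SLC1A4) and a pair that were not called there (ASNS and AARS1) are printed below from 250 bases before the start to 10 bases after it, with the match in capitals. CHAC1 lies at chr15:40953221-40953480 on the plus strand and SLC1A4 at chr2:64989149-64989408 on the plus strand. ASNS lies at chr7:97872399-97872658 on the minus strand and AARS1 at chr16:70289497-70289756 on the minus strand.
CHAC1: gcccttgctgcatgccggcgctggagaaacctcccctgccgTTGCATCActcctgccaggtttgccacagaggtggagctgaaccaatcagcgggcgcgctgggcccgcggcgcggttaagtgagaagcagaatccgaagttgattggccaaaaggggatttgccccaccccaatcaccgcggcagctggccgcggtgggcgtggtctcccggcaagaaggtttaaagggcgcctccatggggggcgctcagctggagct
SLC1A4: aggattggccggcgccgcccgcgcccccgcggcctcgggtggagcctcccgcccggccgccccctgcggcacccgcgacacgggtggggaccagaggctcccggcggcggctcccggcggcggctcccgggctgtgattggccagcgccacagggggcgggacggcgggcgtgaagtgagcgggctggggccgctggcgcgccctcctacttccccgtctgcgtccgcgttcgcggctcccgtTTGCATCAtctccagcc
ASNS: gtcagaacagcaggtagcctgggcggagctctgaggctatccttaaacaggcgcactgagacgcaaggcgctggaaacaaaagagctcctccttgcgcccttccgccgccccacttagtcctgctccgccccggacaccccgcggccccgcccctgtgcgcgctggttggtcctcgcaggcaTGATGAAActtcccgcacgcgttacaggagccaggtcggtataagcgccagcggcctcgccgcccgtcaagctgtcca
AARS1: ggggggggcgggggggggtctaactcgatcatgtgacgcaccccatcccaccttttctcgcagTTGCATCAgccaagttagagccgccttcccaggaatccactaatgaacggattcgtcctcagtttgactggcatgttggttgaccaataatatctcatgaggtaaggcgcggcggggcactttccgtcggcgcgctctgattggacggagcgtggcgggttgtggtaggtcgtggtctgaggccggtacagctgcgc
The match begins 209 bases before the start in CHAC1, 7 in SLC1A4, 68 in ASNS and 187 in AARS1. CHAC1, SLC1A4 and AARS1 share the same letters, and ASNS differs from them and reads on the other strand. Among genes with a window, a match was held by 3 of 7 that rose in the arrays labelled NALM-6 and by 6 of 17 not called there.

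Each gene was represented by its probe set of highest mean, and levels are log2 values that cannot be compared between genes. Of the 32 measured genes, 30 passed the filter, which asks that at least 2 of 8 arrays lie above the array median of all probe sets. SHMT1, the cytosolic serine hydroxymethyltransferase, did not pass, at 6.58 to 7.37 over the arrays. ALDH1L2, a mitochondrial folate enzyme, lay between 5.41 and 5.73. GLUL and VLDLR passed only through the arrays labelled SUP-B8, where they were high, so their difference between labels follows in part from the filter. The same holds, among the further lists, for ASL and GLDC, and through the NALM-6 label for NIBAN1. INHBE passed only through the NALM-6-labelled GSK126 arrays. Its response in that label and its difference of responses therefore follow in part from the filter. Where every array of a group fell under its median, expression above background was not shown. The difference is then a lower bound ("at least"), measured from the brighter group's mean down to the medians of the dim arrays.

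**Figure D1:**
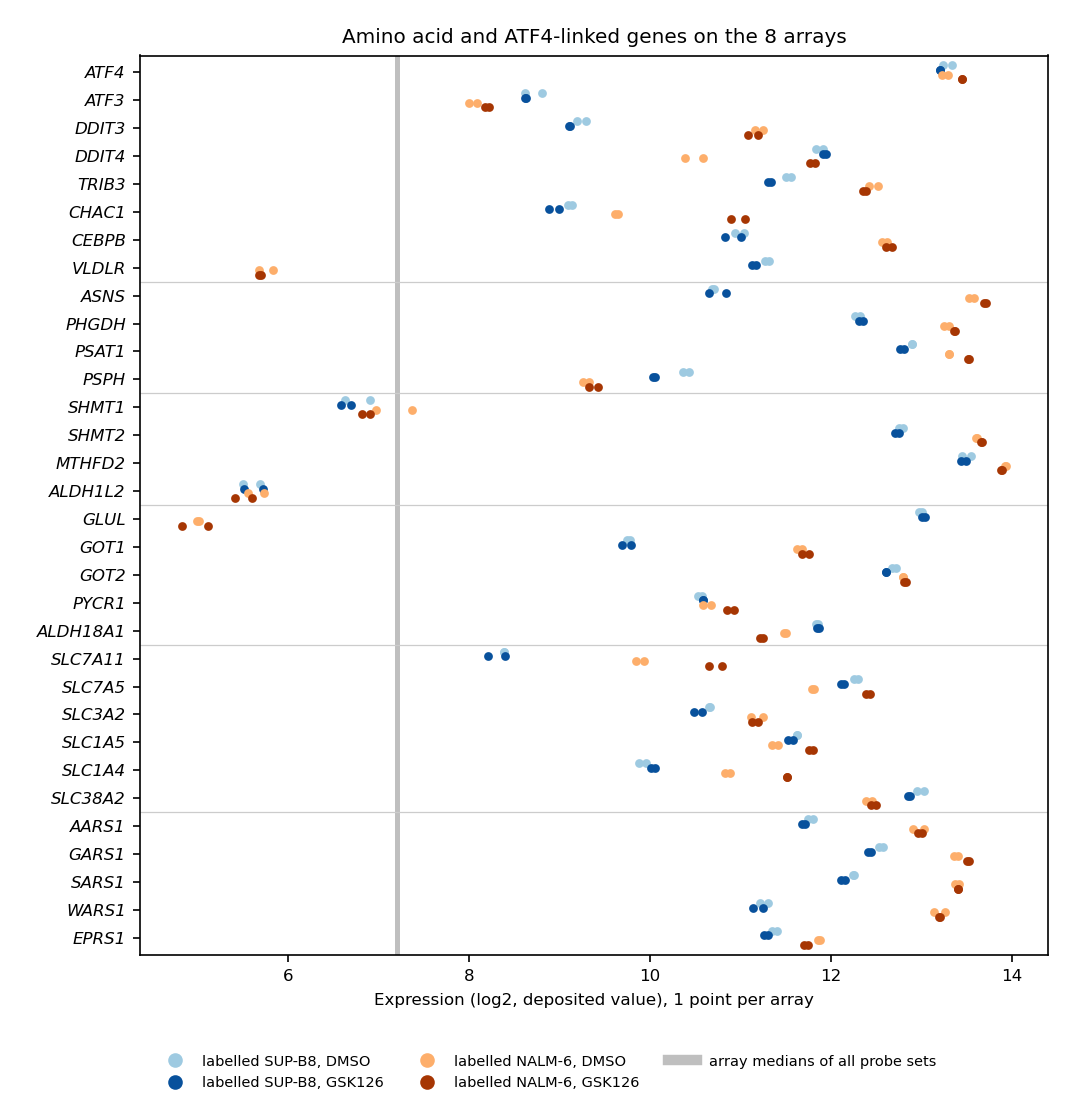
Deposited log2 value of each of the 32 measured genes (rows, italic) on each of the 8 arrays, 1 point per array, coloured by line label and treatment, with grey lines between functional groups and a grey band for the array medians of all probe sets. Replicates lie close together for most genes, GLUL and VLDLR are split by line label across the grey band, and the DDIT4, CHAC1, SLC7A11, SLC7A5, SLC1A5 and SLC1A4 points of the NALM-6-labelled GSK126 arrays lie to the right of their DMSO points.

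With GSK126, 3 of 8 stress genes and 4 of 6 transporter genes were called higher in the arrays labelled NALM-6, and of 9 genes of amino acid synthesis 2 were called higher and 1 lower. CHAC1, a gamma-glutamyl cyclotransferase that degrades glutathione, rose by 1.34 ± 0.07 on the log2 scale (SE, n = 2 against 2), 2.54-fold, and DDIT4, also called REDD1, by 1.31 ± 0.07, 2.48-fold. In bulk RNA, fewer cells of a type and less RNA per cell cannot be told apart. SLC7A11, SLC1A4, SLC7A5 and SLC1A5 rose by 0.83 to 0.39. By limma at an adjusted p under 0.05, 9 of the 30 tested genes were higher (30%) and 2 lower (6.67%), where 20.8% of all 13161 tested genes were higher and 18.5% lower. The balance over all genes turned when array medians were set equal, to 2255 higher against 2621 lower, and 8 of the 30 genes were then called higher against 2 lower. Quantile normalization of the deposited values gave 12 of the 30 higher against 1 lower. It is called renewed here, although whether it was done before is not given. In either direction 36.7% were called, near the 39.3% of all genes, so the number called is not a result about this group. The median difference was 0.06, against 0.02 over all genes. The treated arrays lay above the controls without overlap in 17 genes (56.7%) and below in 4 (13.3%), beside 36.3% and 32.5% of all genes, or 68.8% in either direction. For a single gene the smallest two-sided p of an exact permutation test is 0.333 at this group size, so calls rest on limma, which shares the spread across genes.

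Among the 8 stress regulators 3 rose (37.5%, beside 20.8% of all genes) and 0 fell (beside 18.5%) by limma. In either direction 37.5% were thus called, beside 39.3% of all genes. An unadjusted p under 0.05 was reached by 3 of the 8, beside 6189 of all 13161 tested genes. The CHAC1 arrays read 9.61 and 9.64 with DMSO and 11.05 and 10.90 with GSK126, without overlap (adjusted p = 4.01e-06). Those labelled SUP-B8 read 9.09 and 9.14, then 8.99 and 8.88. DDIT4, an inhibitor of mTORC1 signalling, read 10.39 and 10.58 with DMSO and 11.82 and 11.77 with GSK126 (adjusted p = 5.39e-06). The GSK126 values thereby lay beside the 11.84 to 11.95 of all 4 arrays labelled SUP-B8. Of all tested genes, 2.17% were called at a fitted difference of at least 2-fold, and CHAC1 and DDIT4 were the 2 of the 30 genes to be so.

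ATF4, the central transcription factor, was high on every array, at 13.23 and 13.29 with DMSO and 13.45 and 13.45 with GSK126. Its rise of 0.19 ± 0.05 (adjusted p = 0.0217) was small. It was not called without NALM-6-labelled DMSO replicate 1 (0.16, adjusted p = 0.0962), without GSK126 replicate 1 or 2 of that label (0.19, adjusted p = 0.0943 and 0.0902) or with each array centred on its median (0.16, adjusted p = 0.0853). DDIT3, which encodes the pro-apoptotic factor CHOP, read 11.16 and 11.25, then 11.08 and 11.19, a difference of -0.07 ± 0.06. The pseudokinase gene TRIB3 differed by -0.10 ± 0.05, the transcription factor CEBPB by 0.05 ± 0.07 and ATF3 by 0.15 ± 0.07, none of them called. As the mean of its probe sets ATF3 was called, at 0.39 (adjusted p = 0.00173), and so was its difference of responses, at -0.45, with 2 of its 3 probe sets below the array medians in this label. VLDLR, a lipoprotein receptor gene, lay below the array medians with either treatment, so no size is given. 

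Of 6 transporter genes 4 rose (66.7%, beside 20.8% of all genes) and 0 fell (beside 18.5%) by limma. Their median difference was 0.50, beside 0.02 over all genes. An unadjusted p under 0.05 was reached by 4 of the 6, beside 6189 of all 13161 tested genes. SLC7A11, the cystine importer, read 9.84 and 9.93 with DMSO and 10.79 and 10.65 with GSK126 (0.83 ± 0.08, adjusted p = 8.89e-05). SLC1A4, a carrier of alanine and serine, read 10.83 and 10.88, then 11.51 and 11.51 (0.65 ± 0.05, adjusted p = 3.83e-05). In both genes the treated arrays lay wholly above the controls. SLC7A5, the large neutral amino acid transporter LAT1, read 11.79 and 11.81, then 12.39 and 12.43 (0.61 ± 0.05, adjusted p = 3.86e-05). SLC1A5, a glutamine carrier, read 11.35 and 11.42, then 11.80 and 11.76 (0.39 ± 0.05, adjusted p = 4.61e-04). For both, the treated arrays rose past the levels of the arrays labelled SUP-B8, which spanned 12.11 to 12.30 for SLC7A5 and 11.53 to 11.63 for SLC1A5. SLC3A2 encodes the heavy chain that pairs with both SLC7A5 and SLC7A11. It read 11.12 and 11.25, then 11.13 and 11.19, and its difference of -0.02 ± 0.06 was not called. SLC38A2, the SNAT2 carrier of small neutral amino acids, differed by 0.05 ± 0.05, and was called with renewed quantile normalization alone (limma adjusted p = 0.0405). The responses of a carrier and its heavy chain were not tested against each other.

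Of 4 genes of asparagine and serine synthesis 1 rose (25%, beside 20.8% of all genes) and 0 fell (beside 18.5%). PSAT1, the aminotransferase of the serine pathway, read 13.31 and 13.31, then 13.53 and 13.52 (0.22 ± 0.05, adjusted p = 0.00623 by limma). ASNS, asparagine synthetase, read 13.53 and 13.58, then 13.69 and 13.71, without overlap, yet its difference of 0.15 ± 0.07 was not called (adjusted p = 0.119). It was called with renewed quantile normalization (0.19, adjusted p = 0.0294) and with an intensity-trended robust prior (adjusted p = 0.0164). PHGDH and PSPH, the first and last enzymes of the serine pathway, differed by 0.09 ± 0.05 and 0.08 ± 0.06 and were not called. PHGDH was called with the intensity-trended robust prior alone (limma adjusted p = 0.0491). In proline synthesis the enzymes moved in opposite directions. PYCR1, the mitochondrial pyrroline-carboxylate reductase that makes proline, rose from 10.67 and 10.59 to 10.85 and 10.93 (0.26 ± 0.05, adjusted p = 0.00542). ALDH18A1, which makes its precursor from glutamate, fell from 11.48 and 11.50 to 11.25 and 11.22 (-0.25 ± 0.05, adjusted p = 0.00303). The aspartate aminotransferases GOT1 and GOT2 differed by 0.07 ± 0.06 and 0.02 ± 0.05, and the folate enzymes SHMT2 and MTHFD2 by 0.06 ± 0.05 and -0.04 ± 0.05.

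Of 5 measured cytosolic tRNA synthetases 1 fell (20%, beside 18.5% of all genes) and 0 rose (beside 20.8%) by limma. An unadjusted p under 0.05 was reached by 2 of the 5, beside 6189 of all 13161 tested genes. EPRS1, which charges glutamate and proline tRNAs, read 11.86 and 11.88, then 11.70 and 11.75 (-0.15 ± 0.05, adjusted p = 0.0484). This call was lost in 11 of 17 alternatives, adjusted p reaching 0.242 without NALM-6-labelled GSK126 replicate 1. It was lost too without the other GSK126 array of that label (0.0918 as adjusted p), either DMSO array (0.0908 and 0.151) or either GSK126 array labelled SUP-B8 (0.0790 for each), and with renewed quantile normalization the difference was -0.09. GARS1 (0.13 ± 0.05, adjusted p = 0.0537), SARS1 (0.02 ± 0.05), AARS1 (0.01 ± 0.06) and WARS1 (0.00 ± 0.06) were not called, but GARS1 was in 4 alternatives, at 0.13 to 0.16 (lowest adjusted p = 0.00159). 

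**Figure D2:**
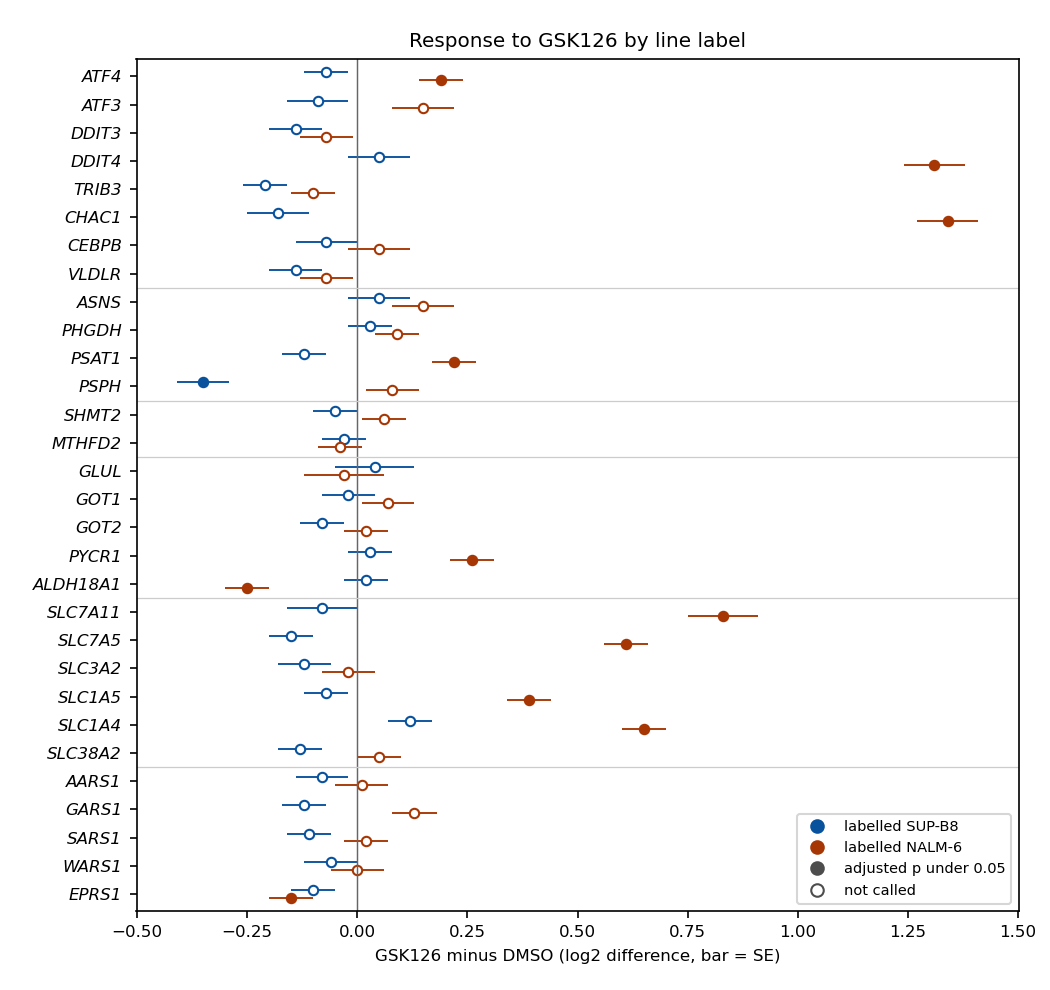
Log2 difference GSK126 minus DMSO for the 30 tested genes (rows, in functional groups), in arrays labelled SUP-B8 (blue) and NALM-6 (brown), with bars for the SE; filled points have an adjusted p under 0.05. DDIT4 and CHAC1 stand near 1.3 in the NALM-6-labelled arrays and near 0 in the others, 4 of 6 transporters lie between 0.39 and 0.83, and PSPH is the single filled blue point.

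Genes with several probe sets gave a check within the arrays, although probe sets of one gene share their samples. In the NALM-6-labelled response 5 called genes had 10 other probe sets, of which 8 were called the same way and 0 the opposite way when every probe set was tested. All 5 probe sets of SLC1A4 rose, by 0.40 to 0.65, and both of PSAT1, by 0.22 and 0.32. For SLC7A11 a second probe set rose by 0.92, and the dimmest, at a mean of 7.97 with DMSO, differed by -0.12. The mean over its probe sets was 0.54, still called (adjusted p = 7.87e-05). The EPRS1 probe sets differed by -0.15 to -0.17. When every probe set was tested, only the one at -0.16 was called (limma adjusted p = 0.0367). The representative one and the other were not (0.0621 for each). For ATF3 a second probe set was called higher, with means of 6.16 and 7.16, both below the array medians, so no size is given, and the probe set that represents the gene was not called. For SARS1 the dimmer probe set was called higher by 0.22 and the brighter one differed by 0.02. A second probe set of PSPH was called higher by 0.18 (limma adjusted p = 0.0489), while the representative one differed by 0.08.

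**Figure D3:**
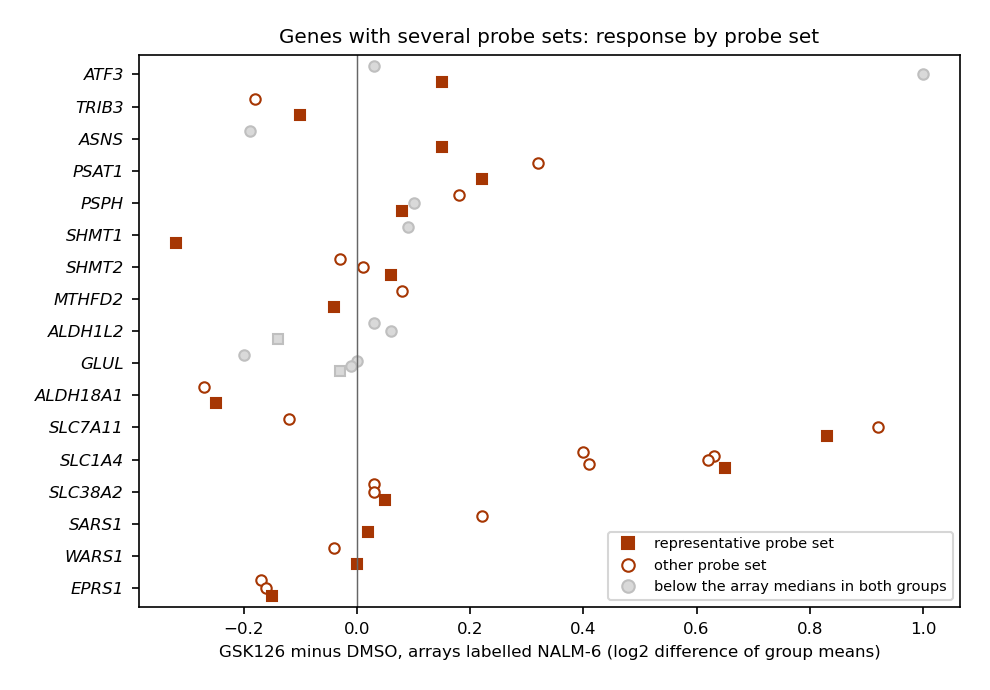
Log2 difference GSK126 minus DMSO in the NALM-6-labelled arrays for each probe set of the genes with more than 1 probe set (rows); squares are the representative probe set, open circles the others, and grey marks probe sets below the array medians in both groups. The 5 SLC1A4 probe sets lie between 0.40 and 0.65, while 1 of 3 SLC7A11 probe sets lies at -0.12 beside 0.83 and 0.92.

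Other genes of the pathway were read from lists fixed by symbol, and their counts stand beside 20.8% of all genes higher and 18.5% lower. Among eIF2alpha kinases, eIF2 factors and the phosphatase that reverses the signal, 1 of 12 rose and 3 fell in the arrays labelled NALM-6. PPP1R15A, the stress-induced phosphatase subunit GADD34, fell from 10.72 and 10.66 to 9.32 and 9.43 (-1.32 ± 0.06, adjusted p = 3.27e-06), while arrays labelled SUP-B8 stayed between 8.60 and 8.68. EIF2B2 fell by 0.25 (SE 0.06). EIF2B4 rose by 0.22 ± 0.07 (limma adjusted p = 0.0319). Its call was lost without NALM-6-labelled DMSO replicate 1 (0.13) or GSK126 replicate 1 or 2 of that label. It was lost too without the filter, with each array centred on its median and with only the 4 arrays of the contrast. None of the 4 kinases EIF2AK1 to EIF2AK4 was called.

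Of 15 further tested ATF4-linked genes 5 rose (33.3%, beside 20.8% of all genes) and 2 fell (13.3%, beside 18.5%). INHBE is counted among the 5, but passed the filter only through the NALM-6-labelled GSK126 arrays, so its rise follows in part from the filter. CTH, which makes cysteine, rose from 9.87 and 9.87 to 10.68 and 10.60 (0.77 ± 0.08, adjusted p = 1.92e-04). JDP2, a basic leucine zipper factor, rose from 10.21 and 10.27 to 10.99 and 10.99 (0.75 ± 0.06), or by 0.46 as the mean of its probe sets. KLHL24 fell from 10.53 and 10.53 to 9.54 and 9.67 (-0.93 ± 0.06, adjusted p = 1.17e-05). Other cytosolic tRNA synthetases rose in 5 (41.7%) and fell in 2 (16.7%) of 12, FARSA by 0.37 ± 0.07 and RARS1 by 0.36 ± 0.07, with VARS1 at -0.33 ± 0.05. Mitochondrial synthetases, which charge tRNAs inside the organelle, rose in 4 (26.7%) and fell in 7 (46.7%) of 15. YARS2 stood at -0.48 ± 0.05 and AARS2 at 0.36 ± 0.05, and WARS2 (-0.29 ± 0.07, or -0.19 over its probe sets) lost its call without NALM-6-labelled DMSO replicate 2 (-0.20, adjusted p = 0.0538) or GSK126 replicate 1 (-0.28, adjusted p = 0.0541).

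Other transporters rose in 4 (25%, beside 20.8% of all genes) and fell in 3 (18.8%, beside 18.5%) of 16 tested. SLC25A13, the mitochondrial aspartate-glutamate carrier, stood at -0.47 ± 0.05, SLC38A5 at 0.30 ± 0.06 and the cationic carrier SLC7A1 at 0.25 ± 0.05, which was -0.01 and not called as the mean of its probe sets. Other enzymes of amino acid and folate metabolism rose in 8 (44.4%) and fell in 2 (11.1%) of 18 tested. GCSH, a subunit of the glycine cleavage system, rose from 10.09 and 10.19 to 11.09 and 10.99 (0.90 ± 0.06, adjusted p = 1.85e-05), and GCAT, which acts in threonine and glycine breakdown, by 0.72 ± 0.07. MTHFD2L fell by 0.74 (SE 0.05), but its mean over probe sets was -0.12 and not called. The medians of these lists lay between -0.11 and 0.14, beside 0.02 over all genes.

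In the arrays labelled SUP-B8 a single gene of the group, PSPH, was called. By limma 1 of 30 was lower and 0 higher (3.33%), where 2.25% of all tested genes were called (1.91% higher, 0.334% lower). An unadjusted p under 0.05 was reached by 8 of the 30, beside 2198 of all 13161 tested genes. At a fitted difference of at least 2-fold, 0 of 30 and 0.0532% of all genes were called. PSPH, the phosphatase that completes serine synthesis, fell from 10.43 and 10.36 to 10.06 and 10.03, without overlap (-0.35 ± 0.06, adjusted p = 0.0207). A second probe set gave the same difference, -0.35, and the remaining one lay below the array medians. The call was lost without any 1 of the 4 arrays of that label, DMSO replicate 1 (-0.32, adjusted p = 0.0784), DMSO replicate 2 (-0.39, adjusted p = 0.0603), GSK126 replicate 1 (-0.37, adjusted p = 0.115) or GSK126 replicate 2 (-0.34, adjusted p = 0.12), and as the mean of its probe sets (-0.21, adjusted p = 0.0508).

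Small downward differences were common in this label. The treated arrays lay below the controls without overlap in 17 of 30 genes (56.7%) and above in 4 (13.3%), beside 30% and 19.5% of all genes, or 49.5% in either direction, and the median difference was -0.08 against -0.02. TRIB3 read 11.50 and 11.56, then 11.34 and 11.30 (-0.21 ± 0.05, adjusted p = 0.109). CHAC1 differed by -0.18 ± 0.07, SLC7A5 by -0.15 ± 0.05 and GARS1 by -0.12 ± 0.05, and none was called. With the intensity-trended robust prior instead, TRIB3, SLC7A5, GARS1, PSAT1 and SLC38A2 were called lower (limma adjusted p = 0.00443 to 0.0427). Over all 13161 tested genes that prior called 504 higher and 273 lower. All 5 tRNA synthetases differed by -0.12 to -0.06. Without that prior none of them was called on its representative probe set. The dimmer SARS1 probe set was called lower by 0.37 when every probe set was tested (limma adjusted p = 0.0439). The mean of both SARS1 probe sets was -0.24, called at an adjusted p of 0.0459 by limma, and -0.36 in the difference of responses. ASNS read 10.68 and 10.71, then 10.84 and 10.65, which overlap. In the other lists, GLDC, the glycine decarboxylase, rose from 9.52 and 9.53 to 9.98 and 9.90 (0.41 ± 0.06, adjusted p = 0.0190). Its call was lost without any 1 of the 4 arrays of that label, DMSO replicate 1 or 2 (0.41 and 0.42, adjusted p = 0.0690 and 0.0860) or GSK126 replicate 1 or 2 (0.37 and 0.46, adjusted p = 0.132 and 0.0708). The transporter SLC7A6 (-0.29 ± 0.05, adjusted p = 0.0399) and ARG2 (-0.29 ± 0.05, adjusted p = 0.0339) were called lower, and both calls were lost without any 1 of the same arrays. Over all alternatives the adjusted p reached 0.236 for SLC7A6 and 0.732 for ARG2, whose mean over probe sets was -0.06. NIBAN1 was called lower with both levels below the array medians, so no size is given. The lists of eIF2alpha regulators and of cytosolic and mitochondrial synthetases had 0 called by limma. An unadjusted p under 0.05 was reached by 2 of 12, 4 of 12 and 1 of 15, beside 2198 of all 13161 tested genes.

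The difference of the responses, SUP-B8 label minus NALM-6 label, was tested directly, and 11 of 30 genes were called (36.7%, beside 25.4% of all genes). Among all called genes 43.1% were higher, or 53.1% with each array centred on its median, where 1 of the 30 was called higher and 8 lower. Of these 10 were lower, meaning a response further up in the arrays labelled NALM-6 (33.3% beside 14.5%), and 1 was higher (3.33% beside 10.9%). CHAC1 (-1.52 ± 0.09, adjusted p = 3.95e-05), DDIT4 (-1.26 ± 0.10, adjusted p = 9.76e-05) and SLC7A11 (-0.91 ± 0.11, adjusted p = 7.80e-04) differed most, and SLC7A11 by -0.52 as the mean of its probe sets. SLC7A5 (-0.76 ± 0.07), SLC1A4 (-0.54 ± 0.07) and SLC1A5 (-0.46 ± 0.07) came next. PSPH (-0.44 ± 0.08, adjusted p = 0.00511) and PSAT1 (-0.33 ± 0.06, adjusted p = 0.00734) followed, with differences of -0.35 and 0.08 for PSPH and -0.12 and 0.22 for PSAT1 in the SUP-B8 and NALM-6 labels. ALDH18A1 (0.27 ± 0.07) was the one higher. Each array centred on its median ended the calls of ATF4 (-0.26 ± 0.07, adjusted p = 0.0355, then 0.121) and GARS1 (-0.26 ± 0.07, adjusted p = 0.0244, then 0.100).

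Leaving out 1 array ended 3 of these 11 calls. ATF4 and GARS1 were lost without SUP-B8-labelled DMSO replicate 2 (adjusted p = 0.0861 and 0.0597), either GSK126 array of that label (0.0987 and 0.0988 for ATF4, 0.0668 and 0.0901 for GARS1), NALM-6-labelled DMSO replicate 1 (0.0875 and 0.0593) or either GSK126 array of that label (0.0999 and 0.0964 for ATF4, 0.0653 and 0.0894 for GARS1). ALDH18A1 was lost without any GSK126 array, with adjusted p of 0.0514 to 0.0769, so that 0 were then called higher. PYCR1 (-0.23 ± 0.08, adjusted p = 0.0570) was not called, but was in 3 alternatives (lowest adjusted p = 0.0173). Outside the 30 genes, PPP1R15A (1.32 ± 0.08, adjusted p = 4.45e-05) and KLHL24 (1.04 ± 0.08) responded further down in the arrays labelled NALM-6, and JDP2 (-0.86 ± 0.08) and GCSH (-0.89 ± 0.09) further up. INHBE was called as well, but only its NALM-6-labelled GSK126 arrays lay above the medians, so no size is given.

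Without the inhibitor the lines differed in nearly all of these genes, in both directions. In the arrays labelled SUP-B8 all 5 measured tRNA synthetases were lower, and of 9 genes of amino acid synthesis 4 were lower and 3 higher. ASNS was lower by a log2 difference of -2.86 ± 0.07, 7.25-fold, while GLUL and VLDLR were far higher there. By limma 27 of 30 genes were called (90%), beside 68.3% of all genes. Lower in the arrays labelled SUP-B8 were 18 (60%, beside 30.6%) and higher 9 (30%, beside 37.8%), and the median difference was -0.50 against 0.04. At a fitted difference of at least 2-fold 12 of 30 were called, beside 20% of all genes. The labels did not overlap in 20 genes lower (66.7%) and 9 higher (30%), beside 36.3% and 44.9% of all genes, or 81.1% in either direction. GLUL and VLDLR, which passed the filter only through the arrays labelled SUP-B8, are among the called, higher, 2-fold and non-overlapping genes. These comparisons use the same DMSO arrays as the responses above.

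All 5 measured synthetases were lower in the arrays labelled SUP-B8. WARS1, the tryptophan enzyme, read 11.30 and 11.22 there and 13.14 and 13.26 in the arrays labelled NALM-6 (-1.94 ± 0.06, adjusted p = 2.62e-08). AARS1 read 11.75 and 11.80 against 12.91 and 13.03 (-1.19 ± 0.06), and SARS1 12.24 and 12.26 against 13.37 and 13.42 (-1.15 ± 0.05). GARS1 (-0.83 ± 0.05) and EPRS1 (-0.49 ± 0.05) differed less. In none of the 5 did the arrays overlap. Of all genes, 36.3% were lower without overlap, and 81.1% did not overlap in either direction. Of 12 other cytosolic synthetases 3 were lower (25%, beside 30.6% of all genes) and 5 higher (41.7%, beside 37.8%). LARS1 (-1.11 ± 0.05), CARS1 (-0.97 ± 0.05) and RARS1 (1.07 ± 0.07) differed most. Mitochondrial synthetases were lower in 5 (33.3%) and higher in 6 (40%) of 15, with MARS2 at 1.59 ± 0.06, WARS2 at -0.90 ± 0.07 (-0.55 over its probe sets) and HARS2 at 0.70 ± 0.06.

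Among the synthesis enzymes, ASNS read 10.68 and 10.71 against 13.53 and 13.58 (adjusted p = 3.45e-09). Its other probe set lay below the array medians, and the mean of both was -1.78, still called. PHGDH read 12.32 and 12.27 against 13.25 and 13.31 (-0.98 ± 0.05), PSAT1 differed by -0.41 ± 0.05, and PSPH went the other way, at 10.43 and 10.36 against 9.32 and 9.26 (1.10 ± 0.06). The mitochondrial folate enzymes SHMT2 (-0.82 ± 0.05) and MTHFD2 (-0.43 ± 0.05) were lower, and 3 probe sets of SHMT2 gave -0.82, -0.93 and -1.68. GOT1, the cytosolic aspartate aminotransferase, read 9.75 and 9.78 against 11.63 and 11.68 (-1.89 ± 0.06, adjusted p = 1.45e-08), while its mitochondrial counterpart GOT2 (-0.11 ± 0.05, adjusted p = 0.0697) and PYCR1 (-0.08 ± 0.05) were not called, GOT2 being called in 4 alternatives (lowest adjusted p = 0.00776). ALDH18A1 was higher, at 11.83 and 11.86 against 11.48 and 11.50 (0.36 ± 0.05, adjusted p = 1.31e-04).

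GLUL, glutamine synthetase, read 12.97 and 13.01 in the SUP-B8-labelled DMSO arrays and 5.01 and 4.99 in those labelled NALM-6, below the array medians, so it was higher by at least 5.80. A further pair of GLUL probe sets split the labels the same way, the dimmer at means of 11.12 and 6.51, while the remaining one lay below the medians in both. With GSK126 the GLUL values were 13.01 and 13.04 against 4.82 and 5.11. VLDLR read 11.27 and 11.31 against 5.83 and 5.67, at least 4.09 higher.

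The stress genes were mixed, with 3 higher (37.5%, beside 37.8% of all genes) and 4 lower (50%, beside 30.6%) of 8 in the arrays labelled SUP-B8. VLDLR is among the 3 higher. DDIT3 read 9.19 and 9.29 against 11.16 and 11.25 (-1.97 ± 0.06, adjusted p = 2.17e-08), and CEBPB 10.94 and 11.04 against 12.56 and 12.62 (-1.60 ± 0.07). TRIB3 (-0.94 ± 0.05) and CHAC1 (-0.51 ± 0.07) were lower too. DDIT4 (1.39 ± 0.07) and ATF3 (0.67 ± 0.07) were higher, and ATF3 by a mean of 0.93 over its probe sets. That mean takes in probe sets at 6.44 and 6.16 in the NALM-6-labelled DMSO arrays, below the array medians, so its size is uncertain. ATF4 itself, at 13.24 and 13.34 against 13.23 and 13.29, overlapped between the labels and was not called (0.03 ± 0.05).

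Transporters divided evenly, 3 lower and 3 higher of 6 (50% each, beside 30.6% and 37.8% of all genes). SLC7A11 (-1.50 ± 0.08), SLC1A4 (-0.94 ± 0.05) and the heavy chain SLC3A2 (-0.53 ± 0.06) were lower in the arrays labelled SUP-B8, and SLC38A2 (0.57 ± 0.05), SLC7A5 (0.47 ± 0.05) and SLC1A5 (0.24 ± 0.05) higher. In the wider lists, 11 of 18 tested enzymes of amino acid and folate metabolism were higher (61.1%, beside 37.8% of all genes) and 3 lower (16.7%, beside 30.6%), a median of 0.96 beside 0.04. ASL, which makes arginine from argininosuccinate, was higher by at least 2.74, GLDC by at least 2.33, and ALDH4A1, which oxidizes the proline breakdown product, by 2.95 ± 0.07. ASL and GLDC are counted among the 11, but passed the filter only through the arrays labelled SUP-B8. Further ATF4-linked genes were lower in 9 (60%) and higher in 3 (20%) of 15, with CBS, which makes cystathionine, at -2.75 ± 0.07, STC2 at 2.51 ± 0.12 and NIBAN1 lower by at least 3.94. Among the 9, NIBAN1 passed the filter only through the arrays labelled NALM-6, and INHBE lay below the array medians in both DMSO groups. Of the eIF2alpha regulators 4 were lower (33.3%) and 7 higher (58.3%) of 12, PPP1R15A at -2.06 ± 0.06 and the kinases EIF2AK2 and EIF2AK4 at 1.59 ± 0.05 and 1.21 ± 0.07. Other transporters were lower in 6 and higher in 6 (37.5% each) of 16, with SLC38A5 at 1.66 ± 0.06, SLC36A1 at 1.39 ± 0.06 (0.67 over its probe sets) and SLC43A1 at -1.37 ± 0.06.

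**Figure D4:**
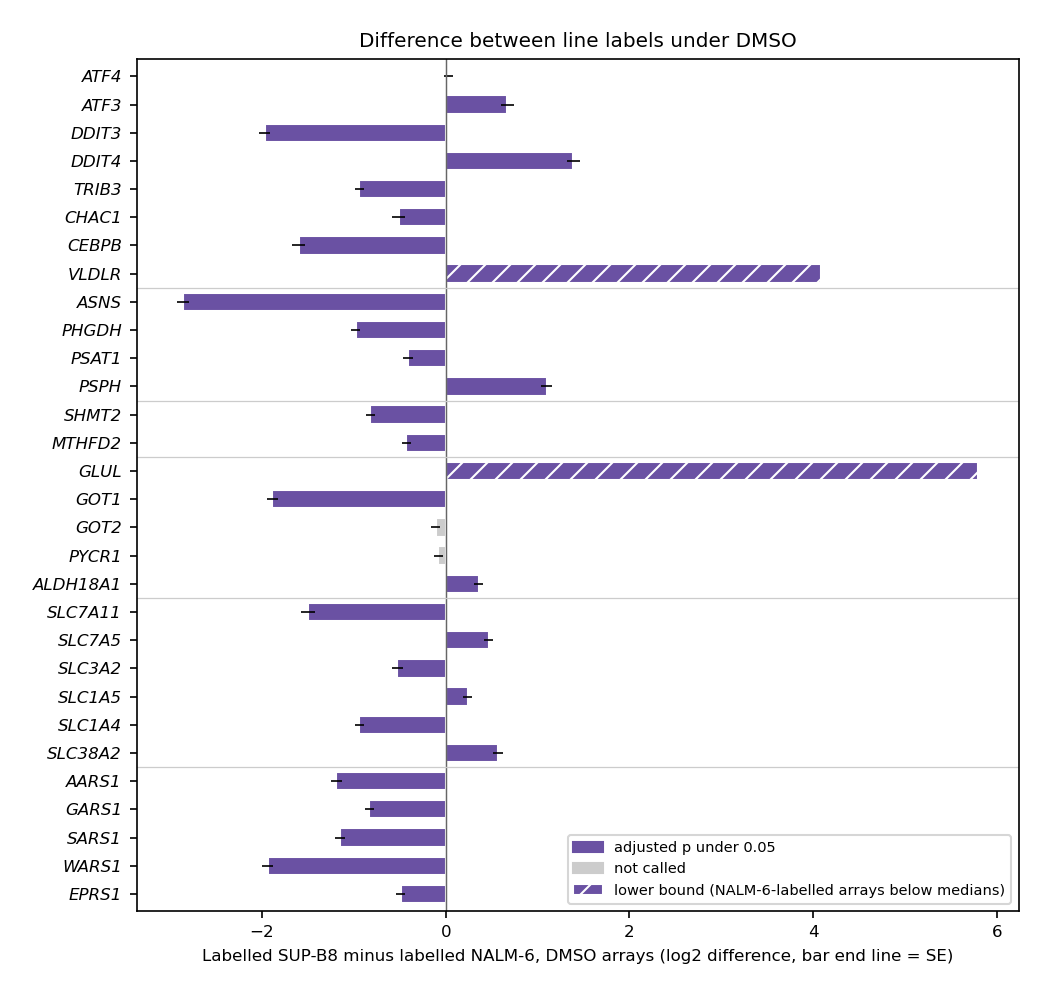
Log2 difference between DMSO arrays labelled SUP-B8 and NALM-6 for the 30 tested genes (rows, in functional groups), with lines for the SE; purple bars have an adjusted p under 0.05, grey bars do not, and hatched bars are lower bounds. All 5 tRNA synthetases lie left of 0, between -1.94 and -0.49, ASNS reaches -2.86, and GLUL and VLDLR extend right to at least 5.80 and 4.09.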

How the data were processed

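Expression was measured on 8 Affymetrix arrays. The table deposited by the authors holds a log2 value for each probe set and array, a scale read from the values themselves. The submitters' processing notes name MAS5 and RMA, and what each did is not given in the sources used here. Values were used as deposited, so a shift common to most genes would be hidden. Detection calls were not used, and 2 arrays per group limit the precision.

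By the platform annotation 41097 probe sets had 1 symbol, 1801 several and 11777 none listed. The annotation named 6 probe sets that include a listed gene beside others, and these were left out. Genes were represented by the probe set of highest mean, and 13161 of 19775 passed the filter. Tests used limma (version 3.58.1, R version 4.3.3) over all arrays, fitting a mean for each group with 4 residual degrees of freedom and Benjamini-Hochberg adjustment over all genes tested. Calls are adjusted p-values under 0.05. Values are log2 differences ± SE of that fit. Another fit used every probe set. Procedures were tested on simulated data. Promoter sequences are from RefSeq (GRCh38.p14), through Python version 3.11.15, and 5 listed genes had no window.

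The members, the lists and the rules were chosen with earlier results of these data known. All listed genes are described, and up to 3 called genes of largest difference are named from each further list and comparison. Replicate numbers in the titles did not pair the arrays: deviations of same-numbered arrays correlated at -0.04 (SUP-B8 label) and -0.02 (NALM-6 label) between treatments, and at 0.13 between the lines under DMSO. Alternatives were the filter, the choice of probe set, the normalization, the prior on the variance, fitting 4 arrays alone, a replicate block and the omission of each array.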

Additional observations from a re-analysis of the deposited data

Results flagged for a closer look

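The responses to GSK126 differed between the line labels in 11 genes by a limma test of the difference itself, SUP-B8 label minus NALM-6 label. The values were -1.52 for CHAC1, -1.26 for DDIT4, -0.91 for SLC7A11, -0.76 for SLC7A5, -0.54 for SLC1A4, -0.46 for SLC1A5, -0.44 for PSPH, -0.33 for PSAT1, -0.26 for ATF4, -0.26 for GARS1 and 0.27 for ALDH18A1. Whether the line or another difference between its cultures underlies them was not tested, and each label is 1 line.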

How the results depend on the processing

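Called genes among the 30 kept their direction under all 17 alternatives (16 for the difference of responses). All 27 calls between the lines under DMSO, 9 of 11 in the NALM-6 label and 8 of 11 for the difference of responses held under every alternative, and 0 of 1 in the SUP-B8 label did. The 27 include GLUL and VLDLR, which passed the filter only through the arrays labelled SUP-B8. Of the genes not called, 6 of 29 in the SUP-B8 label, 5 of 19 in the NALM-6 label, 4 of 19 for the difference of responses and 1 of 3 between the lines gained a call under some alternative. Outside the 30 genes, 44 of 57 named differences held, and SLC7A1 turned to -0.01 in the NALM-6 label as the mean of its probe sets.

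With an intensity-trended robust prior 6 genes were called lower in the SUP-B8 label, against 1. In the NALM-6 label 2 were called lower, and 1 without a filter, with every probe set tested, with renewed quantile normalization, with only the 4 arrays of the contrast or with the replicate block. Leaving out 1 array gave 0 to 1 called lower in the SUP-B8 label, 1 to 2 called lower in the NALM-6 label, and 0 to 1 called higher for the difference of responses. The replicate block gave 9 higher in the NALM-6 label and changed no call of the 30 genes other than EPRS1. Centring on the array median moved the median of all genes by -0.03 in the NALM-6 label and 0.04 in the difference of responses. The share of higher calls over all genes went from 52.9% to 46.2% in the first and from 43.1% to 53.1% in the second. The cause of these changes was not tested.

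With 2 arrays per group, leaving out 1 array ended the calls of PSPH in the SUP-B8 label, of ATF4 and EPRS1 in the NALM-6 label and of ATF4, GARS1 and ALDH18A1 for the difference of responses. GLUL and VLDLR give bounds, and SHMT1 and ALDH1L2 give no difference.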
